A study of Mus musculus with 16 samples.

Results

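Fasting-enriched histone beta-hydroxybutyrylation was examined at 94 genes of 8 developmental transcription factor families: the Hox genes of clusters a to d, the sine oculis-related genes (such as Six3), and the Pax, Lhx, Nkx, Dlx, Irx and Gata genes. They were taken by symbol from the 21774 protein-coding genes placed on chromosomes of the mm10 assembly in RefSeq. No measured value enters the symbol rule, which was set with earlier results of these data known. The mark was lysine 9 beta-hydroxybutyrylation of histone H3 (H3K9bhb), profiled by chromatin immunoprecipitation and sequencing in occipital cortex homogenate of C57BL/6J mice at postnatal day 35. A group of mice was fasted for 48 h and the other was fed ad libitum, with 4 immunoprecipitated and 4 input libraries per feeding state according to the labels. The authors deposited 8404 regions with more mark in fasted mice and 1 region with more in ad libitum fed mice. Each region has a log likelihood ratio (log-LR), a score of the difference, and no value per library. No test between mice and no replicate spread could therefore be had, and the depth is unknown.

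Hox genes encode homeodomain proteins that give cells their position along the head to tail axis. They are ordered along 4 chromosomal clusters in the sequence in which they are used in the embryo. In the forebrain, which forms in front of the Hox domains, they are known to stay off. Many genes of the other families are master regulators of other organs: Pax genes of eye, kidney, muscle and B cells, Gata genes of blood and heart, Nkx genes of thyroid, heart and spinal cord. Such genes often have CpG-rich promoters and are textbook targets of Polycomb repression. In it, histone H3 lysine 27 methylation keeps them shut in tissues that do not use them. A few members are known in the cortex itself, such as Dlx1, Dlx2 and Lhx6 in inhibitory interneurons and Pax6 and Lhx2 in progenitors and astrocytes. RNA was not measured here, so which of the 94 were silent in these cortices was not tested. The Gata genes, zinc finger genes, and Pax1 and Pax9, which have a paired domain without a homeodomain, are not homeobox genes. In tissue homogenate, a mark in few cells and a weak mark in many cells cannot be told apart.

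Of the 94 genes, Dlx2 alone, 1 gene, carried a region gained in fasting within reach of an end, meaning an overlap with the 1 kb on either side of it. The share was 1.06% (95% Wilson interval 0.188 to 5.78, for counting error only, with clustered genes that are not independent). Over all protein-coding genes it was 12%, and over the 21680 others it was also 12%, or 2608 genes. The remaining members are counted as genes without a region. With a window of 500 bp the count was the same, against 9.60% of all protein-coding genes. No gene of the Hox (0 of 39), Pax (0 of 9), Lhx (0 of 8), sine oculis-related (0 of 6), Nkx (0 of 14), Irx (0 of 6) or Gata (0 of 6) families held one, and 1 of the 6 Dlx genes did. The ad libitum region lay on chromosome 3, at 95.6 Mb from Lhx8, the member on that chromosome.

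**Figure D1:**
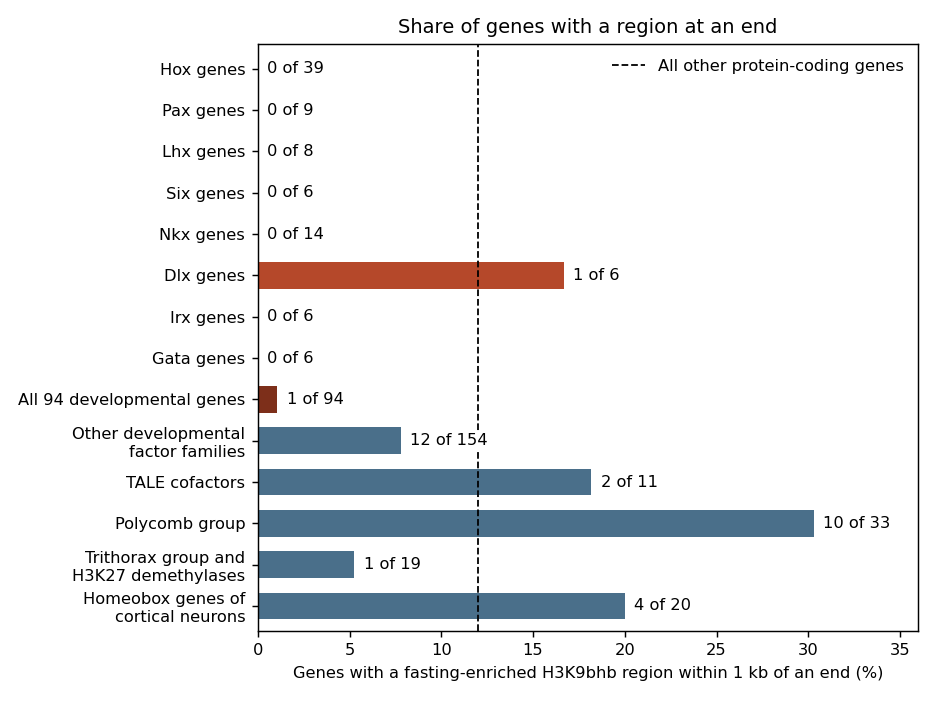
The horizontal axis is the percent of genes with a fasting-enriched H3K9bhb region overlapping 1 kb around a gene end. Red bars are the 8 families and all 94 genes together, blue bars are related gene lists, and the dashed line is the 12% of all other protein-coding genes. The Dlx family is the only red family bar above 0, with 1 of 6 genes.

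A region also lay inside Lhx2 and inside Lhx5, over 1 kb from either gene end. These regions and the one at Dlx2 are the 3 that touched any of the 94 genes. Promoter sequences are shown first for the starts nearest to a region, those of Dlx2 and of the later start of Lhx2. For contrast follow Dlx1, the partner of Dlx2 in a gene pair with no region of its own, and Hoxd13, a Hox gene whose nearest region was 298 kb away. The 4 were picked after the values were seen. Each window runs from 250 bases before to 50 bases after a RefSeq start on GRCm38.p6, the assembly called mm10, written 5′ to 3′ on the gene's strand. Capitals mark CpG dinucleotides. The windows are chr2:71546705-71547004 (minus strand) for Dlx2, chr2:38351058-38351357 (plus) for Lhx2, chr2:71529195-71529494 (plus) for Dlx1 and chr2:74667975-74668274 (plus) for Hoxd13.
Dlx2: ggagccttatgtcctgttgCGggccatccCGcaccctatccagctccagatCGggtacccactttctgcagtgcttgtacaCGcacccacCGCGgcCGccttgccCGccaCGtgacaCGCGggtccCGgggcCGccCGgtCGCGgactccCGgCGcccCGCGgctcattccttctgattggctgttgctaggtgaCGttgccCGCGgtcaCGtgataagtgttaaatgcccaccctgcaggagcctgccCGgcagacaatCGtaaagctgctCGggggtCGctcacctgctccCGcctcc
Lhx2: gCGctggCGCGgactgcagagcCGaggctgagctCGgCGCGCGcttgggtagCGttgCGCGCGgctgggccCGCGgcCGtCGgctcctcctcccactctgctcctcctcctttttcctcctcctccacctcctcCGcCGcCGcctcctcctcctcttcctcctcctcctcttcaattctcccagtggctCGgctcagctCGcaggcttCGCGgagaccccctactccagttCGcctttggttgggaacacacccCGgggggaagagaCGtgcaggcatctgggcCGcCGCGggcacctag
Dlx1: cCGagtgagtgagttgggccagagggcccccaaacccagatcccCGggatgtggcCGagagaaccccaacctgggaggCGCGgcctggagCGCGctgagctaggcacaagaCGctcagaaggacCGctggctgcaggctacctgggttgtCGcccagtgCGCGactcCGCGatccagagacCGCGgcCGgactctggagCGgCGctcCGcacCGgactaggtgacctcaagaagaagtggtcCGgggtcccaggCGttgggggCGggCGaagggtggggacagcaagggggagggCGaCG
Hoxd13: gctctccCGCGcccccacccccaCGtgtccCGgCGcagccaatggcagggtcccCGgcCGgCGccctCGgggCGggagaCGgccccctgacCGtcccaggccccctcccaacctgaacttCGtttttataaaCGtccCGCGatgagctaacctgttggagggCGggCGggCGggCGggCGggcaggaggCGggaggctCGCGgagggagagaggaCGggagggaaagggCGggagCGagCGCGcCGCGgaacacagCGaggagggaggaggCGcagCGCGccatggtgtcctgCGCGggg
The windows held 29 CpG in Dlx2, 29 in Lhx2, 27 in Dlx1 and 37 in Hoxd13, of 300 bases each. Over the 21263 RefSeq windows of protein-coding genes, 95.4% held at least 1 CpG, the median was 13.0 and 17.2% held 29 or more. The densest of the 4 windows was that of Hoxd13, but this order rests on which genes were picked. Hox windows varied: those of Hoxd4 and Hoxa9 held 4 CpG each and that of Hoxa13 held 45. The window at the outer start of Lhx2, not printed here, held 34. The regions themselves are not printed, since only promoter windows were given as sequence.

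Dlx2 encodes a homeodomain factor needed to make cortical interneurons in the embryonic ventral forebrain. The gene spans positions 71543408 to 71546754 of chromosome 2 on the minus strand. Its region, from 71546147 to 71546318, was 172 bp wide and lay inside the gene, 436 to 607 bp downstream of the RefSeq gene start. It did not reach into the promoter window printed above. Its log-LR was 4.02, in the lower part of the list: 20.0% of the 8404 regions had a lower value, and the median was 4.96. Other protein-coding genes with a region at an end had a median highest log-LR of 4.99 (quartiles 4.23 and 6.15). No other annotated gene had an end within 1 kb of this region. Dlx1, which is transcribed toward Dlx2 from the other side of the pair, had its nearest region in this same stretch, 12.2 kb from its end. Beyond the pair, the next regions were 462 kb and 739 kb away, in Dcaf17 and Map3k20.

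Lhx2 encodes a LIM homeodomain factor that sets cortical identity in progenitors. The gene runs from 38339271 to 38369737 on chromosome 2, plus strand, and is 30.5 kb long. Its region, at 38351578 to 38351861, had a log-LR of 5.57, above 63.9% of the list. Counted from the gene's outer start it lay 12307 bp inside. RefSeq gives Lhx2 a later start at 38351308, and the region lay 270 to 553 bp downstream of that start, at a distance close to that of the Dlx2 region from its own start. The region also lay within 1 kb of an end of Gm27197, a long non-coding RNA gene inside Lhx2. When 1 kb around any start in the promoter table was used, 2 of the 61 members in that table held a region, Dlx2 and Lhx2, against 13.2% of all protein-coding genes in it. This alternative was chosen after the data were seen.

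Lhx5, a LIM homeodomain gene known from the hypothalamus and from Cajal-Retzius cells of the developing cortex, was the nearest miss. Its region on chromosome 5, from 120439957 to 120440134, was 178 bp wide with a log-LR of 6.35, above 75.7% of the list. It lay inside the gene, which runs from 120431886 to 120441457, and 1323 bp from the upper end. A window of 3 kb therefore counted Lhx5 as well as Dlx2, 2 of 94 against 14.7% of all protein-coding genes. With regions anywhere in the gene body or within 1 kb counted, the number was 3 of 94, with Lhx2 the third, against 18.2%. The Dlx2 region scored below 5, so with regions of a log-LR of at least 5 no member held one at an end (0 of 94, against 5.93%). The same was true at 10, where 0.184% of all genes kept one.

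**Figure D2:**
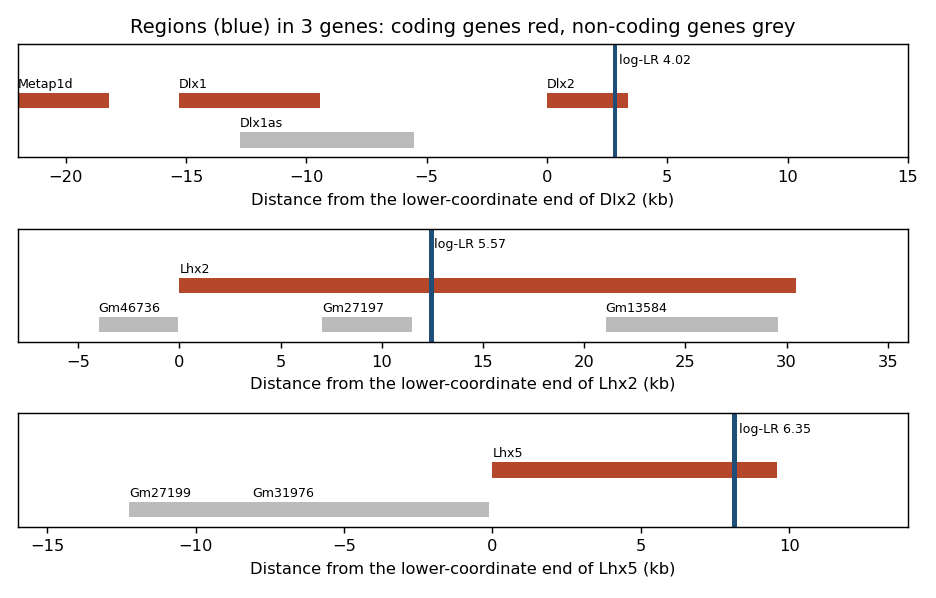
Each panel shows distance in kb from the lower-coordinate end of Dlx2, Lhx2 or Lhx5, with coding genes in red, non-coding genes in grey and fasting-enriched regions in blue with their log-LR. The Dlx2 region lies 436 bp from the upper end of its gene, the Lhx2 region 12307 bp from the lower end and the Lhx5 region 1323 bp from the upper end.

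The 39 Hox genes were remote from fasting-enriched regions. None of the 4 clusters held a region between its outermost genes, over spans of 106 kb (Hoxa, chromosome 6, 52155367 to 52260880), 174 kb (Hoxb, chromosome 11, 96194316 to 96368254), 116 kb (Hoxc, chromosome 15, 102921131 to 103036856) and 96.9 kb (Hoxd, chromosome 2, 74668225 to 74765142). The 100 kb on either side of each cluster were also without a region. Distances from a Hox gene end to the nearest region ran from 143 to 1203 kb, with a median of 314 kb. All genes of a cluster share their flanking regions, so these are 4 neighbourhoods and not 39 separate observations.

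The flanks are described cluster by cluster, and no difference between clusters was tested. Their counts of genes are small and stand beside the 12% of all protein-coding genes with a region at an end. Beside Hoxa, the nearest region lay 143 kb below the cluster, inside Skap2, an adaptor protein gene, with a log-LR of 6.57. On the far side it was 453 kb away in Tax1bp1, an autophagy receptor gene, at 5.55. Of the 4 other coding genes within 500 kb of Hoxa, these 2 had a region at an end, while Evx1, a homeobox gene at the edge of the cluster, and Hibadh had none. Hoxc had its nearest region 249 kb below, 1063 bp from Atp5g2, a subunit gene of the mitochondrial ATP synthase (log-LR 4.49). Another region lay within 1 kb of an end of Atp5g2, the 1 gene of 23 within 500 kb of that cluster with a region at an end. Hoxd was flanked at 298 kb and 322 kb by regions of log-LR 3.99 and 9.27. Both were far from coding genes, 144606 bp from Lnpk and 210383 bp from Mtx2, in the stretches beside the cluster where limb and digit enhancers of Hoxd genes are known to lie. None of the 3 other coding genes within 500 kb of Hoxd had a region at an end.

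Of the 4 clusters, Hoxb stood in the longest empty stretch. Its nearest regions were 1203 kb below, in the synaptic scaffold gene Ppp1r9b (log-LR 7.33), and 1067 kb above, in Arhgap23 (6.75). Between these regions lay 2.44 Mb of chromosome 11 without any fasted region. The stretch held 56 protein-coding genes, 12 of them members (10 Hoxb genes, Dlx3 and Dlx4) and 44 others. Of the 17 other coding genes within 500 kb of Hoxb, 0 had a region, against 12% of all protein-coding genes with one at an end. The absence there was therefore shared by neighbours outside the developmental families.

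**Figure D3:**
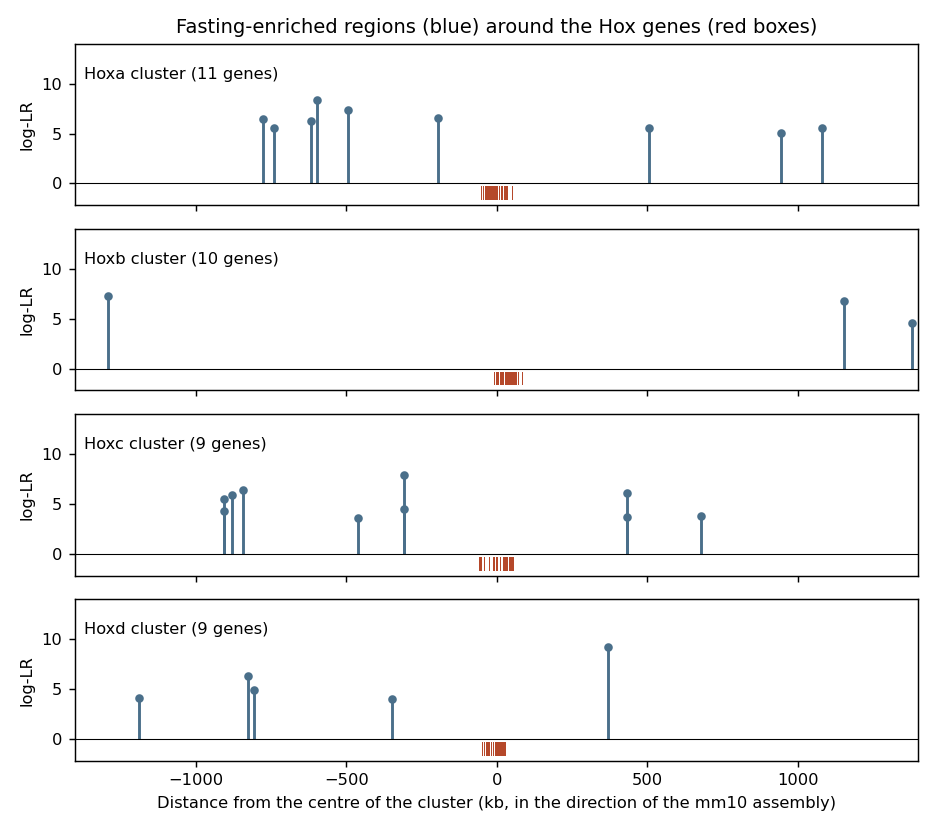
The horizontal axis is distance in kb from the centre of each Hox cluster and the vertical axis the deposited log-LR of each fasting-enriched region (blue). Red boxes are Hox genes; no blue line falls on or within 100 kb of any cluster, and around Hoxb none lies within 1067 kb.

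Outside the Hox clusters the family medians were shorter. Median distances were 56.5 kb for Lhx, 52.3 kb for Irx, 109.6 kb for Pax, 139 kb for Dlx, 162 kb for sine oculis-related, 166 kb for Nkx and 182 kb for Gata genes. Over all 94 genes the median was 214 kb (quartiles 129 and 325), and for the other protein-coding genes 70.4 kb (16.9 and 179). Among members 16.0% had a region within 50 kb of an end, against 42.2% of other genes. Within 500 kb the shares were 87.2% and 94.4%. Most members thus had a region in their wider surroundings.

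Among Lhx genes, Lhx9 was the third nearest of all members, at 7.51 kb. Its nearest region, with a log-LR of 3.80, lay in the neighbouring gene 2310009B15Rik. Lhx3, a pituitary and motor neuron gene, was 28.9 kb from a region in Qsox2. Lhx6, which is used by cortical interneurons, was 194 kb from any region, and Lhx1 and Lhx4 were 303 and 221 kb away. Lhx8, a gene of forebrain cholinergic neurons, was 84.0 kb from the nearest, a region at a log-LR of 8.01 with no nearer coding gene.

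In the Irx family, homeobox genes of heart and neural patterning held in gene triplets, Irx1 was 11.7 kb from a region outside any coding gene (log-LR 4.79). Irx6 followed at 35.2 kb (6.06) and Irx2 at 43.2 kb (5.89), both also with no nearer coding gene. Irx4 was 61.4 kb from a region in Mrpl36, a mitochondrial ribosomal protein gene. Irx5 and Irx3 were 230.0 and 384 kb away. The region nearest to Irx3 lay inside Fto, the gene whose introns are known to hold long-range Irx3 enhancers, with a log-LR of 6.17. No link between that region and Irx3 was tested.

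Pax genes lay between 18.3 kb (Pax4, an endocrine pancreas gene, from a region in Arf5) and 438 kb (Pax1) from a region. Pax9 was 39.2 kb from a region of log-LR 9.89 inside Slc25a21, Pax5, the B cell identity gene, 46.0 kb from one in Zcchc7, and Pax3 49.6 kb from one outside coding genes. Pax6, known in cortical progenitors and astrocytes, was 109.6 kb from its nearest region (log-LR 4.89). Its neighbour Elp4, a gene of the Elongator complex, overlaps Pax6 at 1 end. Elp4 had a region with a log-LR of 10.2 at its other end, farther from Pax6 than the region at 109.6 kb. Pax8, Pax7 and Pax2 were 159, 162 and 220.2 kb away.

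The sine oculis-related, Nkx and Gata genes lay farther out. Six5 and Six6 were 48.5 and 49.2 kb from a region and Six4 173 kb, while Six2, a kidney progenitor gene, and Six3, an eye and forebrain gene, were 479.9 and 523 kb away. Of the 14 Nkx genes the nearest was Nkx2-6 at 61.2 kb and the farthest Nkx6-3 at 499.9 kb. Nkx3-2, a cartilage gene, had its nearest region 80.4 kb away and 260 bp outside Bod1l, with a log-LR of 29.4, the highest of any region nearest to a member. Nkx2-2 and Nkx6-2, genes of the oligodendrocyte lineage, were 253 and 131 kb away, and Nkx2-1, which specifies cortical interneurons in the embryo, 215 kb. Gata5 was 67.4 kb from a region in Rps21. Gata2, Gata3 and Gata6 were 149, 196 and 218 kb from their nearest, and Gata4, a heart gene, was 553 kb from any. Gata1, on chromosome X, was 169 kb from a region in Rbm3. Dlx5 and Dlx6, a pair of genes also known in interneurons, were 279 and 265 kb away, and Dlx3 and Dlx4, which are known in skin and placenta, 129 and 149 kb. Of the 5 members fixed as known in cortical interneurons, 1 had a region at an end, which is Dlx2 again. Of the 4 known in oligodendrocytes, progenitors or astrocytes, 0 had one. Both lists are too small to be set apart from the 12% of all protein-coding genes, or from each other. The farthest members of all were Hoxb13 (1203 kb), Hoxb9 (1158 kb) and Hoxb8 (1149.7 kb).

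**Figure D4:**
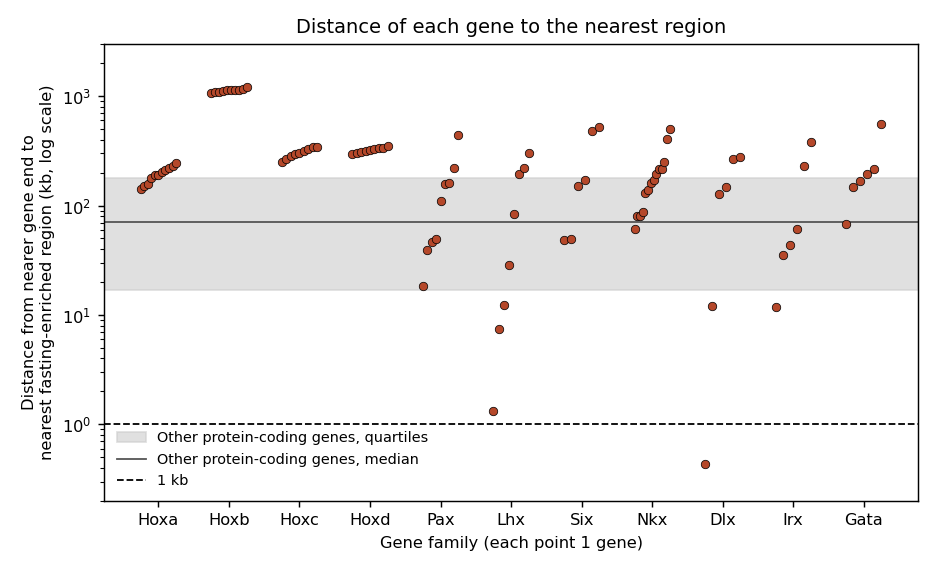
Each point is 1 of the 94 genes, with the distance in kb on a log scale from its nearer end to the nearest fasting-enriched region, by family. The grey band and line are the quartiles (16.9 and 179 kb) and the median (70.4 kb) of the other protein-coding genes; Dlx2 is the one point under the dashed 1 kb line, and the Hoxb genes lie at 1067 kb and above.

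Genes next to the members had a region at a share near the 12% of all protein-coding genes. Within 100 kb of a member lay 110 other protein-coding genes, and 17 of them had a region at an end (15.5%). At 100 to 500 kb it was 58 of 437 (13.3%), and farther away 2533 of 21133 (12%). Examples are Qsox2, a sulfhydryl oxidase gene 875 bp from Lhx3 (log-LR 4.84), Arf5, a vesicle coat GTPase gene 15.7 kb from Pax4 (5.89), and Sympk, an RNA 3′ end processing gene 39.9 kb from Six5 (6.96). Others were Mrpl36, 58.9 kb from Irx4 (6.72), and Phf1, a Polycomb complex gene 88.1 kb from Nkx2-5 (5.62, a region that Kifc5b shares). These distances run from gene to gene, and the regions can lie farther away: that of Qsox2 was 28.9 kb from Lhx3. Some of the 17 genes share a region, as Rps21 and Cables2 do near Gata5. Few other coding genes lay within 100 kb of a Hox cluster: 1 at Hoxa, 3 at Hoxb, 0 at Hoxc and 3 at Hoxd. None of them had a region at an end, but so few genes cannot be set apart from the 12%. The median number of coding genes within 100 kb was 4 for members and 4 for other genes. With fellow members left out of the count, it was 1 for members.

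Promoter CpG density, which the choice of genes did not use, was higher in members as a whole than in other genes, though not clearly so in Hox genes. RefSeq windows were given for 61 of the 94 genes. They had a median GC content of 60.3% and a median observed to expected CpG ratio of 0.679, against 56.3% and 0.563 for the 17431 other genes with a window. A ratio of 0.6 or more was found in 40 of 61 members (65.6%) and 47.1% of the others. Medians by family were 0.625 for 22 Hox genes, 0.761 for 11 Nkx genes, 0.670 for 7 Pax genes and 0.613 for 7 Lhx genes.

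Across the other genes, the share with a region rose with this ratio from class to class, from 1.55% under 0.2 to 26.9% at 1.0 and above. Genes with a region had a median ratio of 0.809 and those without 0.504. Among genes with a ratio of at least 0.6, 1 of 40 members held a region at an end, against 20.5% of all protein-coding genes in that class. Below 0.6 it was 0 of 21, against 4.57%. Members were also short, with a median length of 5.60 kb against 17.3 kb. Among genes under 10 kb the count was 1 of 64, against 8.16%. In genes that met both limits it was 1 of 21, against 19.2%, with a Wilson interval of 0.846 to 22.7% for the members. That interval holds the share of the class, as do those for genes under 10 kb (0.276 to 8.33%) and for a ratio below 0.6 (0 to 15.5%). The interval for a ratio of at least 0.6, 0.443 to 12.9%, lay below the 20.5% of its class. All these intervals cover counting error only, and clustered genes are not independent. The limits on ratio and length were chosen after the data were seen.

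**Figure D5:**
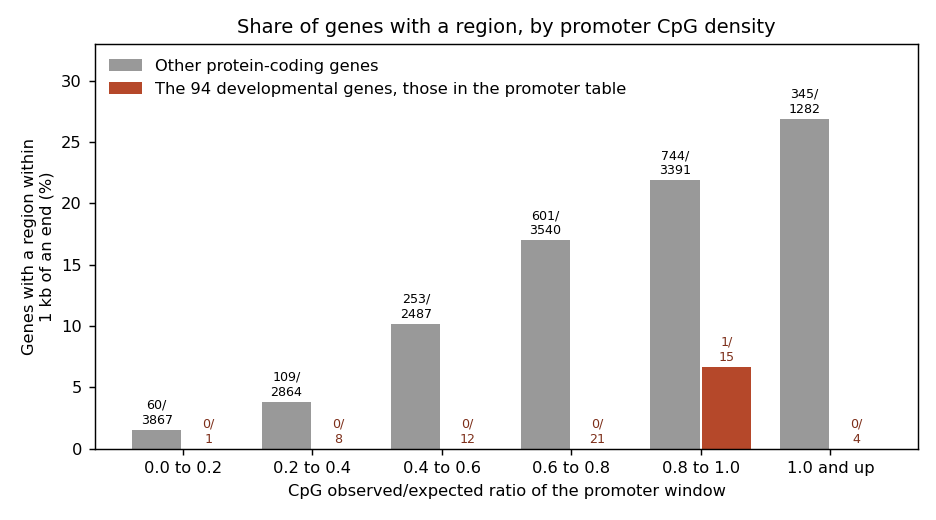
Bars give the percent of genes with a fasting-enriched region within 1 kb of an end by class of promoter CpG observed to expected ratio, grey for other protein-coding genes and red for the 61 developmental genes with a promoter window. Numbers above the bars are genes with a region over genes in the class; the grey bars rise from 1.55% to 26.9%, and the red ones are at 0 except in the class from 0.8 to 1.0, with 1 of 15.

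Genes that act with these factors or on them gave other counts. All lists stand beside the 12% of all protein-coding genes. That share was 20.5% for genes with a promoter CpG ratio of at least 0.6. Median ratios were 0.666 for the TALE, 0.761 for the Polycomb, 0.839 for the Trithorax and 0.700 for the cortical homeobox list. No comparison with genes of like CpG ratio was made for them. TALE homeodomain cofactors, which bind DNA together with Hox proteins, had a region in 2 of 11 (18.2%): Pknox2 (log-LR 5.83) and Pknox1 (4.16). Polycomb group genes had one in 10 of 33 (30.3%). The highest were Aebp2, a cofactor of the H3K27 methyltransferase complex (7.93), Rbbp4, a histone-binding subunit that other complexes also hold (7.06), Rnf2, the H2A ubiquitin ligase (5.71), and Phc3 (5.69). Trithorax group and H3K27 demethylase genes, which oppose Polycomb, had 1 of 19 (5.26%), the H3K4 methyltransferase gene Setd1b (6.66).

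A list drawn up as homeobox genes of postnatal cortical neurons, whose RNA was not measured here, had a region in 4 of 20 (20.0%). Its genes with a region were Cux1 (log-LR 6.60), a marker of upper layers, Emx2 (5.56), a cortical patterning gene, Adnp (5.38) and Zeb2 (3.75). With a window of 500 bp the list had 2 of 20, or a share near the 9.60% of all genes. A wider set of 154 other homeobox and developmental factor genes, chosen by symbol like the members, held 12 (7.79%). Its highest were Msx1 (9.04), Foxa3 (6.96, a region that also lies at Sympk) and Foxk1 (6.07), followed by Emx2. Fox genes had 6 of 44 and Sox genes 3 of 19, while Pou genes had 0 of 15, Tbx genes 0 of 13 and Zic genes 0 of 5. The lists are small, and no difference between them and the 94 genes was tested.

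Marker lists of cell types hold 8 or 10 genes each, too few to be set apart from the 12% of all protein-coding genes. Their median promoter CpG ratios ran from 0.188 (liver, blood and muscle markers) to 0.682 (inhibitory neuron markers). Inhibitory neuron markers held 1 of 10, which is Dlx2 itself, and oligodendrocyte markers 2 of 10 (Mbp at a log-LR of 6.61 and Cnp at 6.52). Excitatory neuron markers held 0 of 10, astrocyte markers 0 of 8, endothelial and mural markers 0 of 8, and markers of liver, blood and muscle 0 of 8. Region lists of this kind do not give the cell type makeup of the tissue.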

How the data were processed

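Cortical chromatin was sonicated and immunoprecipitated with an anti-H3K9bhb antibody, per the labels' protocols. The submitters' processing notes name Bowtie2, MACS2 and mm10 and give neither version nor role. Both lists deposited by the authors give each region a log-LR, per the file headers, which is used here as a score. Log base, cutoff, depth scaling and any pooling were not given in the sources used here. Unequal depth or scaling of the 2 feeding states could change how many regions appear, and intervals cover counting error only.

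Starts were read as counted from 0 and are printed from 1. The gene table was RefSeq on GRCm38.p6, with 21774 protein-coding genes on chromosomes. Rows on scaffolds that carry a chromosome's name were left out. Strand came from the promoter table, which matched 61 members. A gene was counted when a region overlapped 1 kb around either end by at least 1 bp. The step counted all 200 planted genes in each of 5 simulated sets. CpG ratio is the CpG count times window length over the product of C and G counts, averaged over a gene's windows.

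The members, lists and rules were chosen with earlier results of these data known. Named were members with a region, those up to 3 kb from one, the nearest regions of each Hox cluster, the farthest 3 members, up to 4 genes of highest log-LR per list, and members of families of up to 9 genes. A member and a marker list are not reported here. Other genes named, including Nkx genes and neighbours, were chosen after their values were seen. No set test was run. Alternatives changed the window (500 bp, 3 kb), the overlap rule, the log-LR limit and the set of members. Software was matplotlib 3.10.9, scipy 1.17.1, pandas 2.3.3, numpy 2.4.6 and Python 3.11.15.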

Additional observations from a re-analysis of the deposited data

How the results depend on the processing

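The count of members with a region at an end was 1 and stayed 1 with a window of 500 bp (9.60% of all protein-coding genes), region centres in the window (11.7%), gene starts alone (1 of 61, 11.5%), regions given to the nearest coding gene alone (10.5%), autosomes alone (12.6%), without Gata and Pax genes, without Hox genes (1 of 55), and in genes with a CpG ratio of at least 0.6, under 10 kb long, or both. It became 2 with a window of 3 kb (14.7%) and with any start in the promoter table (2 of 61, 13.2%), and 3 with gene bodies (18.2%). At a log-LR of at least 5 or 10 it was 0, where 5.93% and 0.184% of all genes kept a region. By family, Lhx rose to 1 at 3 kb and Dlx fell to 0 at a log-LR of 5. At that limit the median distance to a region was 259 kb for members and 166 kb for other genes, and the flanks of 500 kb held 2 regions at Hoxc and 1 at Hoxd, with fewer regions left by construction. The clusters held 0 regions at either setting. These counts rest on 0 to 3 genes, and at a log-LR of 10, with 0.184% of all genes called, a count of 0 says nothing about the members. Of the related lists, cortical neuron homeobox genes fell from 4 to 2 of 20 and TALE cofactors from 2 to 1 of 11 at 500 bp. The wider developmental set fell from 12 to 9 of 154 at that window, where the share of all protein-coding genes was 9.60%. At 3 kb, where that share was 14.7%, the wider set rose to 20 of 154 and the Trithorax list from 1 to 2 of 19. No paired analysis was possible because neither list gives values of single libraries, and leaving out replicates was not run for the same reason.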

Other observations

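The empty stretch around Hoxb, picked out after the data were seen, was gene-rich. Positions 94991354 to 97435040 of chromosome 11 held 44 protein-coding genes outside the developmental families, none with a fasting-enriched region, and 21 of these 44 had a promoter CpG ratio of at least 0.6. They include Kat7, a histone acetyltransferase gene, Cbx1, which encodes a heterochromatin protein, the nuclear import gene Kpnb1, the ubiquitin ligase adaptor gene Spop, Phb and the ATP synthase gene Atp5g1. It was 1 of 571 spans of over 1 Mb between neighbouring fasted regions. Its 56 coding genes, members included, were outnumbered by a span on chromosome 7 with 63 and one on chromosome 2 with 59. Leaving out symbols of receptor families and unnamed genes, those held 24 and 0 and this stretch 56, or 44 without its 12 members, against 43 in a span on chromosome X. In all, 22 members lay in 9 such spans, 12 of these members in this stretch alone. The share of all protein-coding genes in such spans is not given here, so the count shows no excess of members.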
